A study of Mus musculus with 4 samples.

Results

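Histone genes were followed in direct RNA nanopore reads of mouse embryonic stem cells. They were the replication-dependent genes of the Hist clusters, and the variant genes, whose mRNAs mostly carry a poly(A) tail as their regular end. Members were all genes whose symbol, deposited or older, began with Hist1h to Hist4h, H2af, H3f3 or H1f followed by a digit or x. The deposited table uses current symbols for most of them, so 16 members matched by the deposited symbol and 51 through an older symbol listed by RefSeq. This gave 67 of 13831 genes, 57 Hist genes and 10 variant genes, with 13325 of 1903919 reads (0.700%).

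Cells were J1 mouse embryonic stem cells grown in serum with LIF and given no treatment, either wild type (WT) or with Mov10, an RNA helicase, knocked out (KO). There were 2 libraries per genotype, WT 1 and WT 2, KO 1 and KO 2; values of a genotype are given in that order, and 4 values without names run from WT 1 to KO 2. Each read is 1 native RNA molecule with its transcript, its gene and an estimate of its tail length in nucleotides (nt). The sources used here do not say whether the libraries came from separate cultures or the knockout cells from 1 clone, so every p-value measures the spread between these libraries, which may be technical.

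Histones package DNA into nucleosomes, built from H2A, H2B, H3 and H4, with H1 on the linker DNA. Most of the histone supply of dividing cells comes from clustered genes that are active in S phase, and their mRNAs normally end in a conserved stem-loop, bound by SLBP, in place of a poly(A) tail. Variants such as H2A.Z and H3.3 come from genes with introns, are made throughout the cell cycle and have ordinary polyadenylated mRNAs. Because RNA was selected on oligo(dT) beads, the Hist reads counted here are the polyadenylated molecules of these genes, not their whole mRNA.

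Depth ran from 351133 reads in WT 2 to 683239 in KO 1, with 439535 in WT 1 and 430012 in KO 2. The targeted gene Mov10 had 59.2 reads per 1000000 reads (RPM) in WT 1 and 39.9 RPM in WT 2, against 0 in KO 1 and 2.33 RPM in KO 2. All 10 stem cell markers were detected, with summed levels of 9551 and 9794 RPM in WT and 8407 and 7330 RPM in KO. Of 7 fibroblast markers only Thy1 was detected, at 5.70 to 14.0 RPM, and the marker lists of endoderm, mesoderm and ectoderm stayed at or below 5.85 RPM each.

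RefSeq promoter windows, 250 bases before to 50 after the start (GRCm38.p6), were available for 55 members, 46 Hist and 9 variant genes. Shown are H2ac8 (older symbol Hist1h2ae, an H2A) and H3c3 (Hist1h3c, an H3), which had the most reads of the Hist genes with a window, and H2az1 (H2afz, H2A.Z) and H3f3b (H3.3), which had the most reads of the variants. They lie at chr13:23571171-23571470, minus strand, chr13:23745472-23745771, minus strand, chr3:137864237-137864536, plus strand, and chr11:116024455-116024754, minus strand. Capitals mark TATAAA (the core of a TATA box), CCAAT (the box bound by NF-Y) and the octamer ATTTGCAT. Each was searched on both strands, so that reverse complements are in capitals too, and in these 4 windows no match overlapped another. In H2ac8 the match to TATAAA is such a reverse complement, and the counts below do not separate the strands.
H2ac8: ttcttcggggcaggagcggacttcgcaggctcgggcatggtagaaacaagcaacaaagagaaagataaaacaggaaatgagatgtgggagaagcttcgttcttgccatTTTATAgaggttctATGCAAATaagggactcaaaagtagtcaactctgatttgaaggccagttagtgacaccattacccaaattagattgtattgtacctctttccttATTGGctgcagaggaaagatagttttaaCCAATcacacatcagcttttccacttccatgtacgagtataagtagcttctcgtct
H3c3: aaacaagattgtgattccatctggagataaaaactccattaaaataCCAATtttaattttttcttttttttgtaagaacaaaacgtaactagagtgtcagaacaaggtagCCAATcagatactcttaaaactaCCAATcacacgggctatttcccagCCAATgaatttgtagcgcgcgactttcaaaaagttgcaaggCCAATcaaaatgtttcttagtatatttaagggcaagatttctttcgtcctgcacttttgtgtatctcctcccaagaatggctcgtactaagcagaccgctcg
H2az1: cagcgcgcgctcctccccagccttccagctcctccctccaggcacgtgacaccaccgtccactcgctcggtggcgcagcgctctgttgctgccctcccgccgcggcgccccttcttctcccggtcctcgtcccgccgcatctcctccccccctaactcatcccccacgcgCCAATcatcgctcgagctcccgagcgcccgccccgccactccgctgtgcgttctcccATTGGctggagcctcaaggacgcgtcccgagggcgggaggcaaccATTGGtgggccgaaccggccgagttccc
H3f3b: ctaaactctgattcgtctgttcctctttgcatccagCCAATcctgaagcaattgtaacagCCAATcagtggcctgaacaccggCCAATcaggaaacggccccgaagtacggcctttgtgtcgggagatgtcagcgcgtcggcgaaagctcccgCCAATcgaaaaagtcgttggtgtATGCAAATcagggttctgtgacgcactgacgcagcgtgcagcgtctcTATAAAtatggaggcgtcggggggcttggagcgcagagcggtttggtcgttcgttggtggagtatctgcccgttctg

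The windows of the Hist genes shared letters that the choice by name did not use. TATAAA occurred in 25 of 46 Hist windows (54.3%), against 13.6% of all 32851 RefSeq promoters. CCAAT occurred in 40 of 46 Hist windows (87.0%, against 37.4% of all), in every window of the H1, H2A, H2B and H3 genes but in 3 of 9 of the H4 genes. The octamer, known from H2B promoters, occurred in 12 Hist windows (26.1%, against 1.74% of all), 6 of 12 for H2A and 6 of 11 for H2B. H2A and H2B genes often sit head to head, and a pair can share a motif, so these windows are not all separate sequences.

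The variant windows looked different in TATAAA, the octamer and G+C content, with a single exception. TATAAA and the octamer each occurred in 1 of 9, which in both cases was H3f3b. CCAAT occurred in 6 of 9 (66.7%), like the Hist windows above the 37.4% of all promoters. The median G+C content was 44.3% in Hist windows and 71.3% in variant windows, against 52.7% over all promoters; H3f3b stood between them at 55%. A match of letters is a description and not a site, and these windows were read from the reference, not from the cells.

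Polyadenylated Hist reads were rare and fewer in the knockout. The class held 432 reads in all, 0.0227% of the total, spread thinly: 45 of 57 genes had under 10 reads over all libraries together and 11 had a single read. Hist genes had 268 RPM in WT 1 (118 reads, exact 95% binomial interval 222 to 321 RPM) and 305 RPM in WT 2 (107 reads, 250 to 368). They had 189 RPM in KO 1 (129 reads, 158 to 224) and 181 RPM in KO 2 (78 reads, 143 to 226).

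Both knockout libraries therefore lay below both wild-type libraries, and the means were 185.1 RPM ± 5.24 in KO against 286.6 RPM ± 25.6 in WT (SD, n = 2 each). The knockout level was 64.6% of the wild-type level, and the difference of -101.5 RPM was larger than the spread between replicates (pooled SD 18.5 RPM). The binomial, Wilson and order-statistic intervals given here cover counting error only, and no test was made of class totals. In bulk RNA, fewer cells of a type and less RNA per cell cannot be told apart.

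By the histone encoded, the lower level was seen for H1, H2A, H3 and H4 but not for H2B. The 11 H3 genes had 63.7 and 85.4 RPM in WT 1 and WT 2, and 36.6 and 37.2 RPM in KO 1 and KO 2, so that KO stood at 49.5% of WT. The 10 H4 genes had 45.5, 45.6, 29.3 and 18.6 RPM in the same order, with KO at 52.6% of WT. The 15 H2A genes had 72.8, 85.4, 46.8 and 46.5 RPM, with KO at 59.0% of WT.

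In each of these 3 types the wild-type and knockout libraries did not overlap. For the linker histone H1, 5 genes with 45 reads in all had 34.1, 25.6, 16.1 and 23.3 RPM, again without overlap but with little distance between WT 2 and KO 2. The 16 H2B genes had 52.3, 62.7, 60.0 and 55.8 RPM, means of 57.5 RPM ± 7.30 in WT and 57.9 RPM ± 2.97 in KO (SD, n = 2), and the groups overlapped. A single gene, H2bc4, held 58 of the 110 H2B reads. Whether H2B differed from the other types was not tested.

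**Figure D1:**
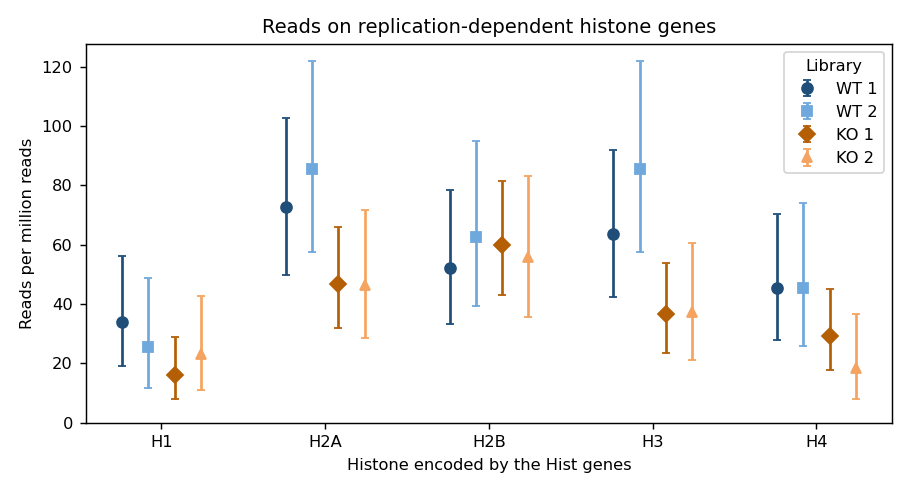
Reads per 1000000 reads on replication-dependent histone genes (vertical axis) by the histone encoded, 1 point per library with its exact 95% binomial interval. For H2A, H3 and H4 both KO points lie below both WT points, while the 4 H2B points lie between 52.3 and 62.7.

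The 3 most abundant Hist genes, H2bc4, H2ac8 and H3c3, held 128 of the 432 reads (29.6%), and the top 10 held 56.2%. H2bc4 (Hist1h2bc), an H2B gene, had 29.6 and 34.2 RPM in the WT libraries and 26.3 and 34.9 in the KO libraries, with overlapping groups. H2ac8 had 29.6 and 17.1 RPM in the WT libraries (13 and 6 reads) and 16.1 and 14.0 RPM in the KO libraries (11 and 6 reads). H3c3 had 25.0, 25.6, 14.6 and 9.30 RPM in that order (11, 9, 10 and 4 reads). For H2ac8 and H3c3 both KO libraries were below both WT libraries. Without these 3 genes the knockout remained lower, by a difference of -78.6 RPM.

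The other 7 of the top 10 had 12 to 28 reads each and no single direction. H1f2 (Hist1h1c), a linker histone gene, had 14 and 4 reads in the WT libraries and 7 and 3 in the KO libraries. Its levels were 31.9, 11.4, 10.2 and 6.98 RPM, without overlap but with WT 2 close to KO 1. H4c9 (Hist1h4i) had 2, 4, 7 and 6 reads (4.55, 11.4, 10.2 and 14.0 RPM), while H3c1 (Hist1h3a) had 0, 7, 4 and 5 (0, 19.9, 5.85 and 11.6 RPM). The H2A genes Hist1h2ap, H2ac11 (Hist1h2ag) and Hist1h2ao had 15, 12 and 12 reads in all, and the H2B gene H2bc12 (Hist1h2bk) had 13.

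Counted gene by gene, 37 of 57 Hist genes had a lower mean RPM in KO and 20 a higher one. In 17 the libraries did not overlap with KO lower and in 6 with KO higher. Among all 4815 genes above the filter on read number (mean of 10 reads or more), 15.5% did not overlap with KO lower and 25.2% with KO higher, a background of better covered genes than most Hist genes. Of the 12 Hist genes with 10 or more reads in all, 8 were lower and 4 higher in KO, 5 and 1 of them without overlap.

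Near-identical copies limit these gene counts. Of the Hist reads, 193 (44.7%) lay on transcripts that carry more than 1 symbol in the deposited table, as did 8799 variant reads (68.2%). Because 28 Hist symbols shared a transcript with another member, the split between Hist copies is uncertain. No variant symbol shared a transcript with another member. The 8799 variant reads thus lay on transcripts shared with symbols outside the members, so that variant read numbers are uncertain too. On transcripts with a single symbol the Hist difference was -72.8 RPM, again with KO lower. The variant difference on such transcripts was -312 RPM, against a pooled replicate SD of 605 RPM. Of all Hist reads, 91.9% came from the 46 genes of the Hist1 cluster on chromosome 13, and the 37 tested genes nearest to that cluster on either side showed no common direction: 17 had more reads in KO and 20 fewer, with a median log2 change of -0.03.

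Levels of S phase genes were similar in all libraries. The summed level of 20 S phase genes was 3256 and 3605 RPM in the WT libraries and 3472 and 3570 in the KO libraries, with overlapping groups. Slbp, which binds the stem-loop of Hist mRNAs, had 121, 134, 105 and 93.0 RPM in that order, a log2 change of -0.46, a standard error (SE) of 0.30 and an adjusted p of 0.624 (limma, Benjamini-Hochberg). Its levels were lower in both KO libraries but did not pass the test. The summed level of the stem cell markers, given above, was also lower in both KO libraries. A part of Slbp, the cell cycle or the stem cell markers in the Hist difference was not tested.

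Tails of Hist reads were about as long as those of all reads. The median Hist tail was 103.2 nt in WT 1 (95% interval from order statistics 89.5 to 122.7), 101.2 nt in WT 2 (89.3 to 127.3), 100.1 nt in KO 1 (86.4 to 119) and 93.3 nt in KO 2 (69.2 to 107.3). Over all genes the median read had 97.3, 105.6, 105.8 and 98.1 nt. Hist reads were thus above the library median in WT 1 and below it in the other libraries.

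Pooled over the genes of a class, variant reads had a longer median tail than Hist reads in every library. The variant median was 108.8 and 117.5 nt in the WT libraries and 121.3 and 104.1 in the KO libraries. Each value was above the median of all reads of its library. The Hist median minus the variant median was -5.52, -16.4, -21.2 and -10.9 nt in the same order, a mean of -13.5 nt ± 6.78 (SD, n = 4 libraries). Pooled over libraries, the Hist median of 100.6 nt had an interval of 94.7 to 108.5 nt and the variant median of 114.0 nt one of 112.6 to 115.3 nt. Within single libraries the Hist interval reached into that of the variants in WT 1, WT 2 and KO 2, and ended just below it in KO 1.

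That difference is one between pooled reads and does not hold for every variant. The variant H2ax, with medians of 93.7, 92.1, 95.5 and 85.9 nt, lay below the Hist median in each library. Only 1 Hist gene, H2bc4, had at least 10 reads in each library, with medians of 110.9 and 97.4 nt in the WT libraries and 120.9 and 108.5 in the KO libraries, and against the median of the variant genes it differed by -0.230 nt ± 13.5 (SD, n = 4 libraries). On transcripts with a single symbol, which leave out 68.2% of the variant reads, the class difference was -7.36 nt ± 17.8 (SD, n = 4 libraries). The gap thus did not hold for the most abundant Hist gene taken alone.

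**Figure D2:**
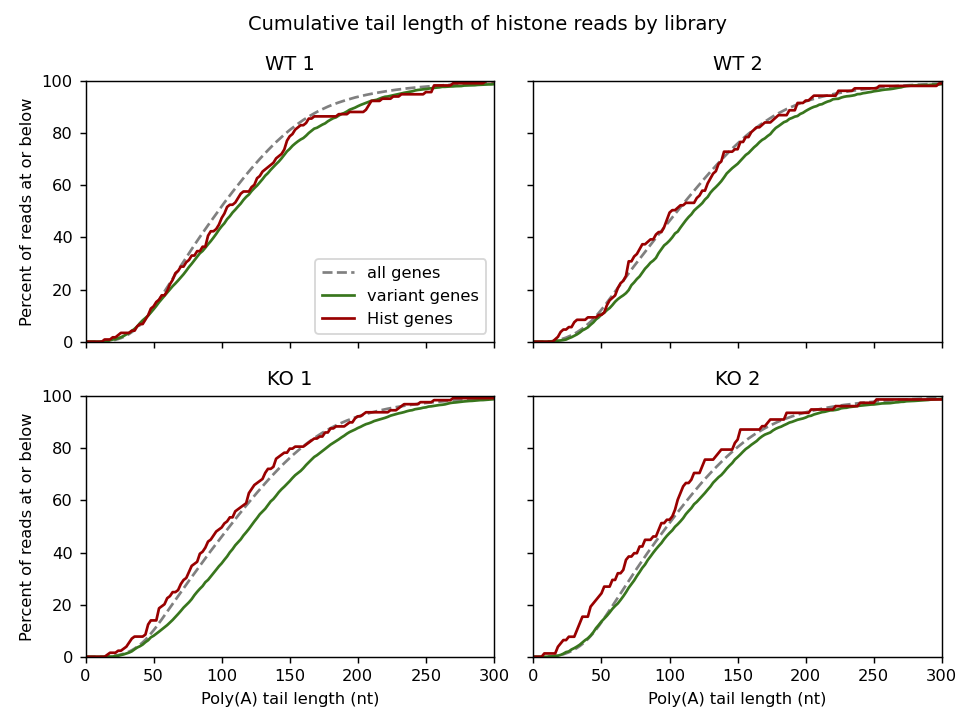
Cumulative percent of reads (vertical axis) at or below each tail length in nt (horizontal axis), 1 panel per library, for Hist genes (118, 107, 129 and 78 reads), variant genes and all genes. The variant curve lies to the right of the all-genes curve over most of its range, and the Hist curve lies between these curves in much of WT 1 and close to the all-genes curve or to its left in the other libraries.

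The classes differed at both ends of the length range. Tails under 30 nt made up 3.39% of Hist reads in WT 1 (4 reads), 7.48% in WT 2 (8), 3.88% in KO 1 (5) and 7.69% in KO 2 (6). In variant reads they made up 2.79, 2.22, 1.25 and 3.28% in that order. The Hist share was higher in 4 of 4 libraries, by a mean of 3.22 percentage points ± 2.07 (SD, n = 4). The mean difference was 2.49 points ± 1.64 with a limit of 20 nt. With a limit of 50 nt it was 4.39 points ± 5.03, less than its spread (SD, n = 4). Over all genes the share under 30 nt was 2.35, 3.02, 1.55 and 2.75%, also below the Hist share in each library.

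The pooled shares were 5.32% (95% Wilson interval 3.57 to 7.86) for Hist and 2.26% (2.02 to 2.54) for variant reads, and the Hist share rests on 23 short tails. Tails of 150 nt or more made up 21.2, 26.2, 20.2 and 16.7% of Hist reads, against 26.0, 31.8, 32.7 and 23.4% of variant reads. Here the Hist share was lower in 4 of 4 libraries, by a mean of -7.43 points ± 3.48 (SD, n = 4). With a limit of 200 nt the difference was -2.03 points ± 3.04 (SD, n = 4), less than its spread. Over all genes the share of 150 nt or more was below the Hist share in both WT libraries. It was above the Hist share in both KO libraries, and below the variant share in every library. Pooled over libraries, this share was 21.3% for Hist reads, 28.7% for variant reads and 21.7% for all reads.

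Between genotypes the Hist tails were 102.2 nt ± 1.46 in WT and 96.7 nt ± 4.82 in KO (SD, n = 2). The medians of the libraries did not overlap, and the difference of -5.53 nt compares with a pooled replicate SD of 3.56 nt; the intervals within libraries, from 78 to 129 reads each, were wider than this difference. For the H2A genes the KO medians (90.6 and 81.9 nt) lay below the WT medians (94.6 and 116.9 nt). Tails of 150 nt or more made up 25.8% ± 1.18 of H2A reads in WT and 11.3% ± 1.77 in KO (SD, n = 2). These long tails were 8, 8, 4 and 2 reads, of 20 to 32 reads per library. The KO medians also lay below the WT medians for H2B and H3, and overlapped with them for H1 and H4. No test was made of these medians and shares.

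The order of the types changed between libraries. H1 reads had the longest median in WT 1, WT 2 and KO 1 (142.9, 129.0 and 132.5 nt), but in KO 2 they had 87.2 nt, below H2B (110.0) and H4 (90.8). H2A was second to H1 in WT 2 and the second shortest in KO 2, where H3 had the shortest median of 59.2 nt. Each type had 45 to 114 reads over all libraries.

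Among the variants, read number fell off steeply from a few abundant genes. H2az1, H3f3b and H3f3a together held 82.8% of the 12893 variant reads, and the top 5 held 95.6%. Since a direct RNA read is 1 molecule, the number of reads does not grow with transcript length and levels can be set side by side, apart from molecules that broke. On this scale the variants together outnumbered the polyadenylated Hist reads by factors of 30.1 and 19.0 in the WT libraries and 35.2 and 35.6 in the KO libraries.

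H2az1 encodes H2A.Z, a variant found at promoters and required for early development. It had 1838 and 2110 RPM in the WT libraries and 2068 and 2600 in the KO libraries, and the groups overlapped. Its log2 change was 0.12 with an SE of 0.21 (limma voom, Benjamini-Hochberg adjusted p = 0.885). The second H2A.Z gene, H2az2 (H2afv), had 874, 538, 528 and 412 RPM, so that both KO libraries were below both WT libraries.

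H2az2 had a log2 change of -0.66 with an SE of 0.28, which did not pass the test (limma, adjusted p = 0.438; unadjusted p under 0.05). For each H2az2 read there were 2.10 and 3.92 H2az1 reads in the WT libraries and 3.91 and 6.32 in the KO libraries. WT 2 and KO 1 thus had nearly the same ratio, and the groups overlapped there.

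H3f3a and H3f3b both encode H3.3, which is deposited outside replication, through HIRA at active genes and through DAXX and ATRX at repeats and telomeres. H3f3a had 2161 RPM in WT 1 against 1282 in WT 2, 1335 in KO 1 and 1300 in KO 2, so that WT 1 stood apart from 3 similar libraries. H3f3b had 2418, 1361, 2204 and 1581 RPM, with each genotype holding a high and a low library. Their log2 changes were -0.44 (SE 0.26) and -0.06 (SE 0.27), and neither passed the test (limma, adjusted p = 0.580 and 0.965).

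H3f3b had more reads than H3f3a in every library, by a ratio of 1.12 and 1.06 in the WT libraries and 1.65 and 1.22 in the KO libraries. The exact binomial interval of the WT 2 ratio, 0.932 to 1.21, includes equal numbers, and those of the other libraries do not. In the deposited assignment, reads of H3f3b were split evenly between 2 transcripts, with 50.1 to 50.6% on the first in each library. Whether reads of these 2 transcripts can be told apart was not tested. In the deposited classes H3f3a was a Mov10 target without m6A and H3f3b a non-target.

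**Figure D3:**
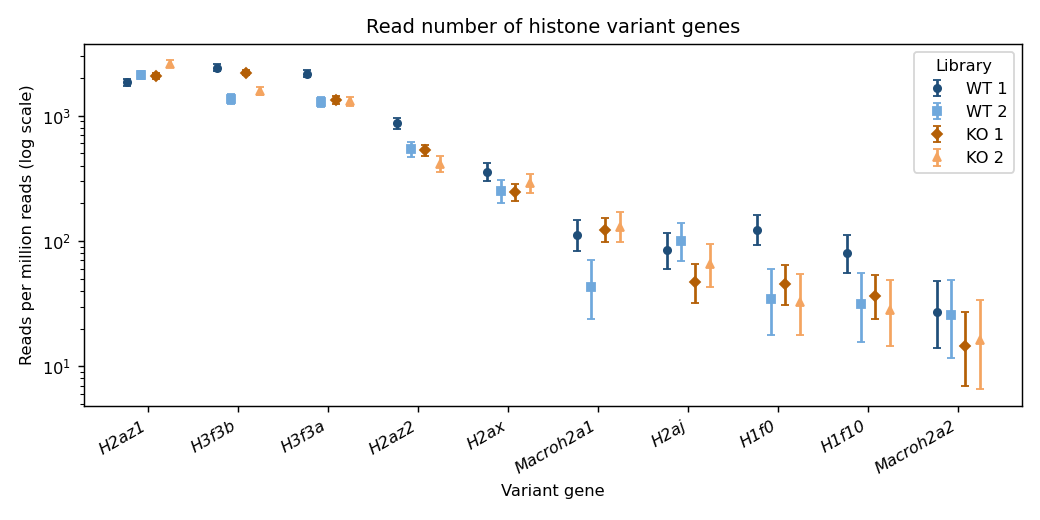
Reads per 1000000 reads (vertical log axis) for the 10 variant genes in order of read number, 1 point per library with its exact 95% binomial interval. WT 1 is the highest library for H3f3b, H3f3a, H2az2, H2ax, H1f0, H1f10 and Macroh2a2.

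The remaining variants were rarer. H2ax (H2afx), which is phosphorylated at DNA breaks and whose mRNA can end in either a stem-loop or a poly(A) tail, had 355, 251, 246 and 288 RPM in WT 1, WT 2, KO 1 and KO 2, with a log2 change of -0.28 (SE 0.28). H2aj (H2afj), an H2A close to the canonical form, had 84.2, 99.7, 46.8 and 65.1 RPM, with both KO libraries below both WT libraries. Its log2 change of -0.86 (SE 0.34) did not pass the test (limma, adjusted p = 0.375; unadjusted p under 0.05).

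The linker histones H1f0, known from differentiating and resting cells, and H1f10 (H1fx) also had 1 high library, WT 1. H1f0 had 123 RPM in WT 1 against 34.2, 45.4 and 32.6 RPM in WT 2, KO 1 and KO 2. H1f10 had 79.6 RPM in WT 1 against 31.3, 36.6 and 27.9. In both genes WT 2 lay within or close to the range of the KO libraries.

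Macroh2a1 (H2afy), an H2A with a large extra domain linked to silent chromatin, had 111 and 42.7 RPM in WT and 123 and 130 RPM in KO, so that the groups did not overlap but WT 1 was near KO. On the median-of-ratios scale of the test these levels were 123.7 and 41.4 in WT and 119.3 and 124.9 in KO, and the groups overlapped. Its log2 change was 0.73 with an SE of 0.39 (limma, adjusted p = 0.538). Macroh2a2 (H2afy2), its relative, had 27.3, 25.6, 14.6 and 16.3 RPM and fell under the filter on read number.

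The split of Macroh2a1 reads between its transcripts also differed between the libraries of the genotypes. The main transcript, ENSMUST00000016081.12, took 79.6% of its reads in WT 1 (39 of 49) and 80.0% in WT 2 (12 of 15), against 54.8% in KO 1 (46 of 84) and 55.4% in KO 2 (31 of 56). The transcript ENSMUST00000045788.8 took 12.2, 6.67, 27.4 and 30.4% in that order. The libraries of the genotypes did not overlap for either share, and the gene was singled out after its values were seen, so this is a description without a test. The WT 2 share rests on 15 reads, with a 95% Wilson interval of 54.8 to 93.0%.

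Over the whole table, limma's voom called 1 of 4815 genes for read number, Mov10 itself (0.0208%, adjusted p = 0.0335), and 500 genes had an unadjusted p under 0.05 (10.4%). All 9 variants above the filter and H2bc4 were tested. None of these 10 members was called, and 2 of them, H2aj and H2az2, had an unadjusted p under 0.05. The tool thus made no call for a histone gene at a Benjamini-Hochberg adjusted p of 0.05.

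Of the 10 members, 8 had a negative and 2 a positive log2 change, with a median of -0.36 against 0.00 over all genes tested. H2aj and H2az2 did not overlap with KO lower, 2 of 10 against 15.5% of all genes. Macroh2a1 did not overlap with KO higher, 1 of 10 against 25.2% of all genes, a count that rests on scaling by total reads. WT 1 held the highest level for 6 of the 10 members, against 21.7% of all genes.

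The read number changes of some variants rested on which wild-type library was used. Others kept their direction: H2aj had log2 changes of -0.89 without WT 1 and -0.83 without WT 2, and H2az1 had 0.12 in both. H2az2 was lower in KO in each of these fits, with -0.20 without WT 1. Without WT 2, limma's voom called 5 of the 10 members lower in KO: H1f0 with a log2 change of -1.81 (adjusted p = 0.000106), H1f10 with -1.45 (0.00888), H2az2 with -1.09 (0.000143), H3f3a with -0.91 (0.000262) and H3f3b with -0.56 (0.0478). That fit called 242 of 4815 genes lower (5.03%) and 127 higher (2.64%). In it WT 1 is the only wild-type library and is assumed to vary like the others. Without WT 1 none of the members was called, and H1f0, H1f10, H3f3a and H3f3b had log2 changes of 0.19, 0.04, 0.04 and 0.47. In the same comparison the summed variant level turned from -373 to 775 RPM higher in KO, and the direction of the class thus rested on WT 1.

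H3f3b lay in a stretch of chromosome 11 whose tested genes had more reads in KO. Of the 40 tested genes nearest to it, 20 on each side, all 40 had a positive log2 change, from 0.16 to 1.67 with a median of 0.85, while H3f3b had -0.06. With total reads as library sizes the median over all genes was 0.11 and H3f3b had 0.05, still below all 40. The sign of H3f3b rested on single libraries, with 0.47 without WT 1 (34 of 40 neighbours above it) and 0.18 without KO 2 (37 of 40), against -0.56 without WT 2 and -0.31 without KO 1 (40 of 40 each). The count of neighbours with more reads in KO was 13 of 40 for H2az1, 27 of 40 for H3f3a, 23 of 40 for H2az2, also on chromosome 11, and 20 of 40 for H2ax. This neighbourhood was looked at after the values were seen.

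**Figure D4:**
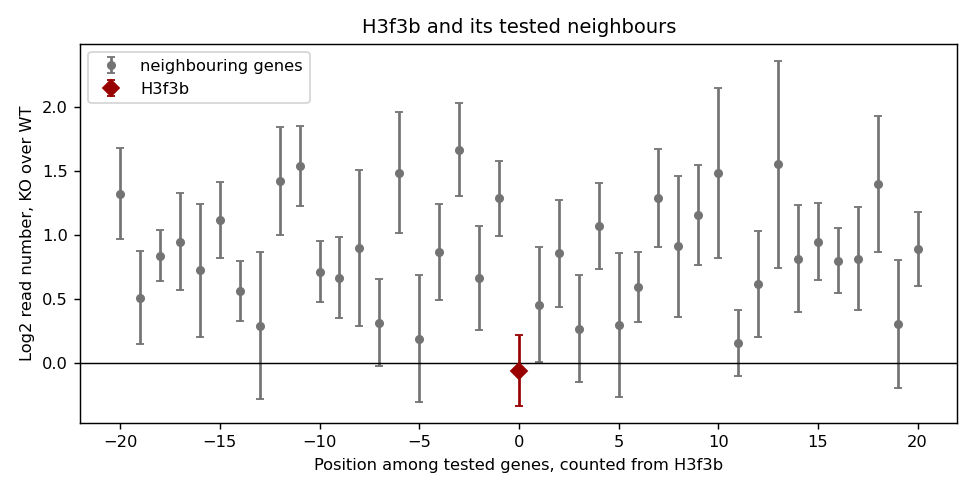
Log2 change in read number, KO over WT, with its standard error (vertical axis), for H3f3b and the 20 tested genes on either side of it, in their order along chromosome 11 (horizontal axis). All 40 neighbours lie above 0 and H3f3b lies at -0.06.

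Tail length was tested for the 6 variants with at least 20 reads in each library, among 1935 genes. No gene was called by limma (0.0%), and 45 genes had an unadjusted p under 0.05 (2.33%), none of them a histone gene. The log2 changes of the 6 members ran from -0.08 for H3f3b (SE 0.10) to 0.05 for H3f3a (SE 0.11) and H2aj (SE 0.22), each with a Benjamini-Hochberg adjusted p of 0.9998. None of the 6 had libraries without overlap, against 11.8% of all genes with KO lower and 14.7% with KO higher.

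The variants differed from each other in tail length. H3f3b had median tails of 126.6 and 126.4 nt in the WT libraries and 133.7 and 107.5 in the KO libraries, the longest of the 6 in the first 3 libraries but not in KO 2, where H3f3a was longer. H2ax had 93.7, 92.1, 95.5 and 85.9 nt, the shortest of the 6 in 4 of 4 libraries. H2ax was shorter than H3f3b by a mean of 31.7 nt ± 7.15 (SD, n = 4 libraries).

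Among all 1935 genes, H3f3b ranked at percentiles 89.3, 82.7, 89.7 and 64.2 of tail length, and H2ax at 28.8, 15.2, 16.1 and 14.0. H2az1 had 110.3, 113.5, 115.8 and 101.6 nt, at percentiles between 48.8 and 68.8, where the median gene had 102.1, 109.4, 110.0 and 102.0 nt. H3f3a had 102.1, 123.6, 120.7 and 112.3 nt, with WT 1 low. H2az2 had 103.4, 117.8, 115.9 and 99.4 nt.

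H2aj had 105.5, 109.0, 114.7 and 107.5 nt. H2az1, H2az2 and H2aj differed from each other by mean amounts of 0.029 to 1.19 nt, below their spread over libraries of 4.68 to 7.08 nt. Between the 2 genes of H3.3, H3f3b exceeded H3f3a by 8.88 nt ± 12.7 (SD, n = 4), less than the spread. KO 2 held the shortest median for 4 of the 6 members, against 37.3% of all genes.

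**Figure D5:**
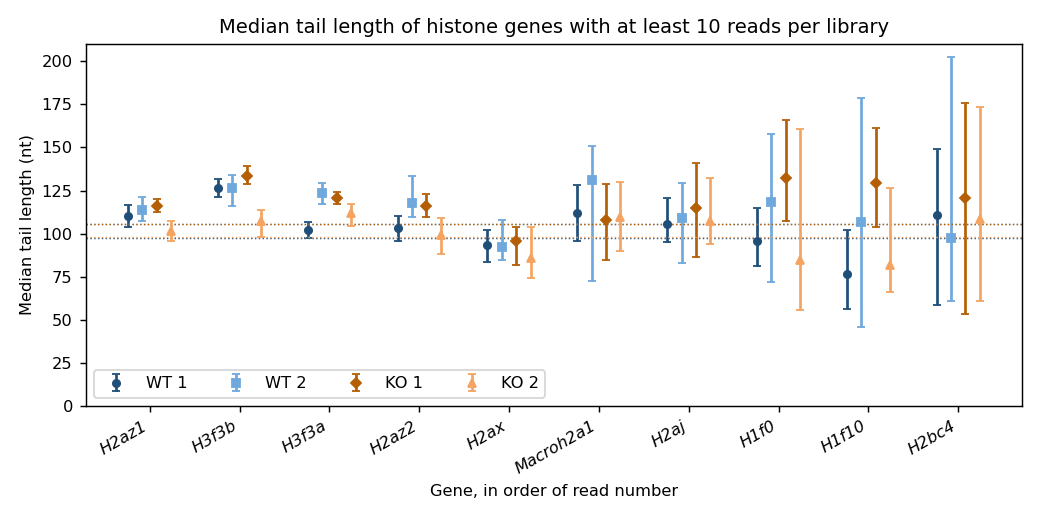
Median tail length in nt (vertical axis) for the 10 histone genes with at least 10 reads in each library, in order of read number, 1 point per library with its 95% interval; dotted lines give the medians over all reads of the libraries. H3f3b is high in 3 libraries, H2ax is low in all 4, and the intervals widen to the right as reads become few.

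Factors that make or handle histone mRNAs were compared from lists of known genes. Of 22 genes of histone mRNA processing and decay, 20 were in the table and 13 were tested for read number, with 7 higher, 6 lower and none called in KO. Srrt (ARS2), which links the cap-binding complex to 3' end formation of Hist mRNAs, had the smallest unadjusted p of these and a log2 change of 1.51 with an SE of 0.46 (limma, adjusted p = 0.197). For tail length 5 were tested, 3 higher and 2 lower, and none was called.

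Of 30 histone chaperones, 25 were tested for read number, 14 higher and 11 lower in KO, and none was called. Ssrp1, a subunit of FACT, had a log2 change of 0.72 (limma, adjusted p = 0.406), Atrx, which places H3.3 with DAXX, 1.11 (0.463), and Asf1a, which carries H3 and H4, -0.63 (0.508). For tail length 15 were tested, 6 longer and 9 shorter, and none was called. Asf1a had the smallest unadjusted p of these, with a log2 change of -0.52 (SE 0.19, limma, adjusted p = 0.9998). Its median tails were 101.4 and 129.3 nt in the WT libraries and 104.5 and 60.7 in the KO libraries. Without KO 2 its tail change was -0.13. The changes of Srrt, Ssrp1 and Atrx rested on WT 1, which held 7, 40 and 5 of their reads. Without WT 2, in the fit that called 2.64% of all genes higher, Srrt and Ssrp1 were called higher in KO (limma, adjusted p = 0.00437 and 0.0231). Without WT 1, Srrt had a log2 change of 0.42, Ssrp1 0.36 and Atrx 0.25 (limma, adjusted p = 0.791, 0.773 and 0.938).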

How the data were processed

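Per the labels' protocols, the authors enriched polyadenylated RNA from total RNA of J1 stem cells on oligo(dT) beads, made libraries with a direct RNA kit and DeePlexiCon adapters, and sequenced them on a MinION. Minimap2 2.20 is named in the submitters' processing notes; the build, the annotation, the tail caller and its filters are not given in the sources used here. The deposited table has, per the file header, 1 row per read with its tail length in nt, an estimate on a scale with no fixed range, and 3 yes-or-no class columns. The 3 reads with a length of 0 were dropped.

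Members and lists were chosen with earlier results of these data known. Tail length was tested with limma 3.58.1 in R 4.3.3 on the log2 median per gene and library (at least 20 reads in each library, trend on log2 mean reads), and reads counted per gene with limma's voom (mean of at least 10 reads, 0.5 reads added, median-of-ratios scaling). P-values were adjusted by Benjamini-Hochberg over all genes tested, at 0.05. Intervals came from scipy 1.17.1, with pandas 2.3.3 and numpy 2.4.6 in Python 3.11.15. No Hist gene had 20 reads in each library, so the class comparison of gene medians could not be made and the median over the pooled reads of a class took its place. Class totals, shares and medians were not tested, since members were chosen by name with results known. The named genes were the 10 genes of each class with the most reads, the members with the longest and shortest tails, Mov10 and Slbp. Of each list they were those called or else some of those with the smallest p.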

Additional observations from a re-analysis of the deposited data

How the results depend on the processing

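The Hist level was lower in KO under every alternative run, from -119.6 to -83.4 RPM with 1 library left out, -137 RPM with H2ax counted as a Hist gene, -72.8 RPM on transcripts with a single symbol and -78.6 RPM without the 3 most abundant Hist genes. The Hist tail minus the variant tail ran from -16.1 to -10.9 nt with 1 library left out and was -0.230 nt over genes with at least 10 reads in each library, where H2bc4 alone stood for the Hist genes. The difference in long tails was -2.03 points ± 3.04 (SD) with a limit of 200 nt, and that in short tails 4.39 points ± 5.03 (SD) with a limit of 50 nt. The summed variant level ran from -1522 RPM without WT 2 to 775 RPM without WT 1, a reversal whose cause was not tested. The tail length test called 0 genes, 1 with a minimum of 10 reads, and 0 to 4 with 1 library left out (4 without WT 2), never a member. The read number test called 1 gene, 7 with total reads, 96 without a filter, 0 with a mean of at least 20 reads (323 at an unadjusted p under 0.05), 0 on log2 of scaled RPM plus 1 (471 unadjusted), and 0 to 369 with 1 library left out: 50 without WT 1, 369 without WT 2, and 0 without either KO library. Mov10 lost its call in 3 of these fits. The labels do not say that replicate numbers pair libraries, and deviations of same-numbered libraries correlated weakly (0.0135 over genes for tail length, 0.0155 for read number). With a replicate block, 65 genes were called for read number and 0 for tail length, and no member. A crossed replicate block, WT 1 with KO 2, called 3 and 0 genes. The crossed block, median-of-ratios sizes for class levels, leaving out the 3 most abundant Hist genes, the fits of H3f3b with its neighbours, and equal weight of variant genes were chosen after seeing the data; the last gave -10.7 nt. Depth limits the Hist genes most, of which 45 of 57 had under 10 reads.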
